A study of Mus musculus with 9 samples.

Results

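The 10 genes described here are the tumour suppressor gene Trp53, its regulators Mdm2 and Mdm4, the p53 target genes Cdkn1a, Ccng1, Phlda3 and Sesn2, the inhibitors of cyclin-dependent kinases Cdkn2a and Cdkn2b, and the retinoblastoma gene Rb1. They were taken by gene symbol from the 55487 genes of a count table of poly-A RNA-seq, and all 10 were among the 16955 genes that had enough counts to be tested. The 9 libraries came from MCEC, murine cardiac endothelial cells kept as an established line, in 3 groups of 3: unmodified cells (genotype WT), cells with Zbtb46 knockdown (KD) and cells with Zbtb46 overexpression (OE). Zbtb46 encodes a zinc finger transcription factor, and every group is the same line. The labels give no treatment or time and do not say by which means Zbtb46 was knocked down or overexpressed, whether a group is 1 clone, or whether replicates were separate cultures, so p-values measure only the spread between these libraries. No library with a control vector was analysed here.

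The p53 protein is a transcription factor that is kept low by the ubiquitin ligase Mdm2 and its partner Mdm4, and after DNA damage or other stress it switches on genes that stop the cell cycle, repair DNA or start cell death. The Rb protein holds E2F transcription factors inactive until cyclin-dependent kinases phosphorylate it, and the products of Cdkn2a (p16Ink4a), Cdkn2b (p15Ink4b) and Cdkn1a (p21) inhibit those kinases. Cdkn2a also gives a protein in another reading frame, p19Arf, which binds Mdm2 and so ties both pathways together. MCEC are commonly described as immortalised with a viral large T antigen, a protein that binds p53 and Rb, and with telomerase; the labels do not say so, and neither transgene was measured here.

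Zbtb46 itself was read first, as a check of the labels. Zbtb46 stood at 13.3, 14.4 and 13.2 CPM in WT replicates 1 to 3, 11.7, 11.4 and 10.7 CPM in KD and 192, 189 and 194 CPM in OE. The KD libraries lay below every WT library, with a log2 fold change of -0.28 (SE 0.055, edgeR adjusted p = 0.00144), so the transcript fell by 17.8%. The OE libraries lay far above, at 3.81 on the log2 scale (SE 0.039, edgeR adjusted p = 3.22e-21). CPM values are counts divided by TMM-scaled library totals, and each edgeR adjusted p is from the quasi-likelihood test of edgeR after Benjamini-Hochberg correction over all 16955 genes. Total counts ran from 39491828 to 55745849 per library, and the 10 genes drew between 347 (Cdkn1a in a KD library) and 11854 counts (Trp53 in a WT library). WT replicate 2 was the deepest library, and with 7.44% it held the lowest share of ribosomal RNA counts, against up to 18.2% in the others. Of 15 endothelial marker genes, 8 stayed under 1 CPM in every library (Pecam1, Cdh5, Tie1, Vwf, Emcn, Erg, Cldn5 and Robo4, with Erg at 0 counts). The summed level of the 15 endothelial markers was 158 to 171 CPM in WT, 142 to 151 in KD and 109.8 to 121 in OE. Eng made up most of that sum, at means of 125, 108 and 84.9 CPM, and single markers did not all follow it: Ptprb had means of 11.1, 19.6 and 3.09 CPM, and Flt1 of 17.2, 12.1 and 21.9 CPM in WT, KD and OE. For 9 fibroblast markers, of which Col1a2, Lum, Postn and Tcf21 stayed under 1 CPM, the sum was 8123 to 8995 CPM in WT, 8079 to 8204 in KD and 5095 to 5206 in OE. Col1a1 (means of 5259, 4773 and 4032 CPM in WT, KD and OE) and Col3a1 (3145, 3238 and 1051 CPM) made up nearly all of that sum. For 9 mural markers (Myh11, Tagln, Rgs5 and Cspg4 under 1 CPM) the sum was 17.4 to 21.2, 11.4 to 13.3 and 9.49 to 10.4 CPM, and 9 cardiomyocyte and 8 leukocyte markers summed to at most 3.09 and 5.75 CPM. The part of these shifts in the results below was not tested, and in bulk RNA fewer cells of a type and less RNA per cell cannot be told apart.

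The 4 promoter windows printed here belong to Cdkn1a and Cdkn2a, kinase inhibitor genes that fell in KD, and to Cdkn2b, the neighbour of Cdkn2a that passed no comparison. Each window runs from 250 bases before a gene start to 50 after it, from RefSeq on GRCm38.p6, which held windows for 9 of the 10 genes (not Rb1). Capitals mark matches to a 10-base p53 motif or to an E2F site (TTTCCCGC, TTTGGCGC, TTTGCCGC or TTTCGCGC), on both strands. The p53 motif is a single unit of a p53 binding site and not a full site. Only exact matches to that unit were marked, and full sites, which can hold mismatches, were not searched for. Cdkn2a has a pair of starts: the upstream one (chr4:89294570-89294869, minus strand) begins the p19Arf transcript and the downstream one (chr4:89282143-89282442, minus strand) the p16Ink4a transcript. The Cdkn2b window is chr4:89310983-89311282 on the minus strand, and that of the upstream Cdkn1a start is chr17:29090729-29091028 on the plus strand.
Cdkn1a upstream start: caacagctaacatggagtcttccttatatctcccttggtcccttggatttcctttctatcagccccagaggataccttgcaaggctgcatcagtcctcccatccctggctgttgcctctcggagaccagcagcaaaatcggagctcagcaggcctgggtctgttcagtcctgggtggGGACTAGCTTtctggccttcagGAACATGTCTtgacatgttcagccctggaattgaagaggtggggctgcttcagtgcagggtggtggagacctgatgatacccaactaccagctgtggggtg
Cdkn2a upstream start: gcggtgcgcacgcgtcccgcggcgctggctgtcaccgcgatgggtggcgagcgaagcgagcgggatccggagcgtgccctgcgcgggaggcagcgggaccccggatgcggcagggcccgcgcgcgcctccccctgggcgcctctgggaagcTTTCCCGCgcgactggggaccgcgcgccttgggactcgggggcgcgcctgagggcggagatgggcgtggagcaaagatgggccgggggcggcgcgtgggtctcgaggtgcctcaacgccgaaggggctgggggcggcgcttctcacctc
Cdkn2a downstream start: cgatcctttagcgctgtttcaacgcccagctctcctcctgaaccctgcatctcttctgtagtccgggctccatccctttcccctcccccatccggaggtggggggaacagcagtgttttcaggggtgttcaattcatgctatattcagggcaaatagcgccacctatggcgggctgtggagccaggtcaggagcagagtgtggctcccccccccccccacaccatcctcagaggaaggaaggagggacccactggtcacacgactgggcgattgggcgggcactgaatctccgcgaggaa
Cdkn2b start: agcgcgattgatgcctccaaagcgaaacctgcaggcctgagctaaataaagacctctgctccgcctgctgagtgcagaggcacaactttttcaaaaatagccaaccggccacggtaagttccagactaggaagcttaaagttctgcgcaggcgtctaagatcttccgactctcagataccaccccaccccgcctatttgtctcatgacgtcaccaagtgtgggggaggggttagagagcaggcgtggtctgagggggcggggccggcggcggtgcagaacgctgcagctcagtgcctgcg
The upstream Cdkn1a window held 2 matches to the p53 motif, GGACTAGCTT with its first base at -73 from the gene start and GAACATGTCT at -51. The window of the downstream Cdkn1a start (chr17:29093519-29093818, plus strand), not printed here, held no match to it. Single matches stood in the windows of Trp53 (GGACTTGCCC at -75), Mdm2 (GAACTTGCCT at -186) and Ccng1 (GGGCAAGCCT at -185), and none in those of Sesn2, Phlda3, Mdm4, Cdkn2a or Cdkn2b. The E2F site TTTCCCGC stood at -99 in the upstream Cdkn2a window and in no other window of the 9 genes. The E-box CACGTG, also searched, stood only in the Trp53 window, at 11 bases after the start. Of the 32851 promoter windows in the RefSeq table, 8.36% held the p53 motif, 2.27% 1 of the E2F sites and 7.15% the E-box. No matches of different motifs overlapped in the windows of these genes. A match describes letters only, and no binding was measured.

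Cdkn1a, Cdkn2a, Sesn2 and Trp53 fell in KD, and Sesn2 and Cdkn2a rose in OE. Against WT, 4 of the 10 genes were called in KD, all lower, where 21.3% of all tested genes were called (10.4% lower). In OE, 2 of 10 were called against WT, both higher, where 36.4% of all tested genes were called (17.0% higher, 19.5% lower). The share called among the 10 lay above that of all genes in KD and below it in OE. These counts are small and moved with the settings, and the difference in share was not tested. Between the modified groups, 6 of 10 were called in OE against KD (Trp53, Cdkn1a, Ccng1, Sesn2 and Cdkn2a higher, Mdm4 lower), beside 41.5% of all tested genes (19.4% higher, 22.1% lower). With library totals in place of TMM, the share of calls over all genes that were higher went from 51.4% to 35.8% in KD and from 46.6% to 31.6% in OE, and with upper-quartile factors from 46.8% to 57.6% in OE against KD. The libraries of KD and WT were fully separated for 5 of the 10 genes (34.7% of all tested genes), those of OE and WT for 3 (45.1%) and those of OE and KD for 8 (55.4%). The median log2 fold change of the 10 genes was -0.12 in KD, beside -0.0022 over all tested genes, and 0.051 in OE, beside 0.002. The median size of their changes, without sign, was 0.14 in KD and 0.10 in OE, below the 0.16 and 0.22 of all genes. In the single test of any difference among the 3 groups, 5 of the 10 passed (Trp53, Cdkn1a, Ccng1, Sesn2 and Cdkn2a), beside 47.7% of all genes. Leaving out WT replicate 2 raised the calls to 6 in KD, adding Mdm4 and Rb1 as higher, and to 4 in OE, adding Ccng1 and Rb1 as higher. The calls over all genes rose as well, from 3617 to 4699 in KD and from 6174 to 6440 in OE. The genes tested were then 17354 in place of 16955.

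**Figure D1:**
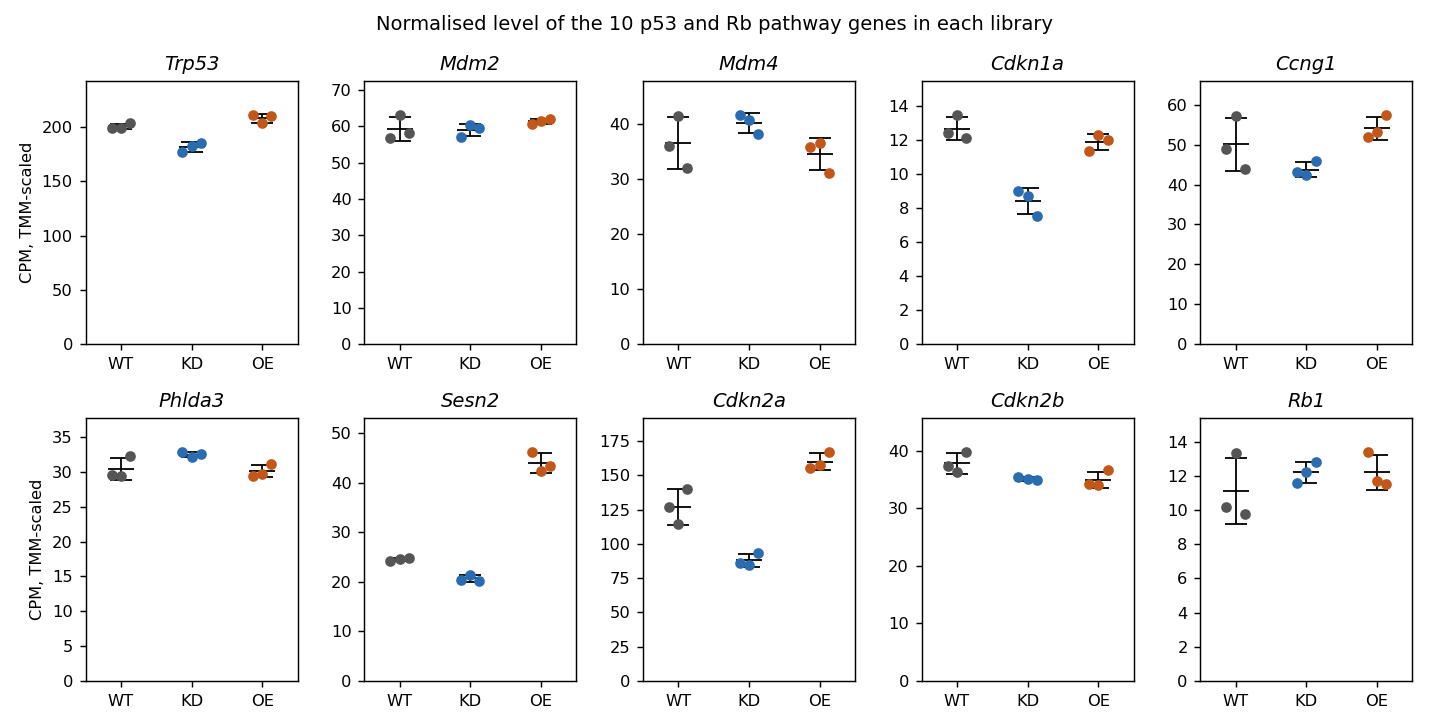
Normalised level (TMM-scaled CPM, axes from 0) of each of the 10 genes in the 3 WT, 3 KD and 3 OE libraries; points are libraries in replicate order, the long bar is the group mean and the whiskers are the SD. Sesn2 and Cdkn2a separate into 3 levels in the order KD, WT, OE, Cdkn1a is lower in the KD libraries than in all others, and the 3 groups of Rb1 overlap.

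Levels of different genes can be set side by side only per length, as CPM per kb of exon. On that scale Cdkn2a was the highest of the 10 in WT, at 108 CPM per kb, followed by Trp53 at 49.6, Cdkn2b at 27.2, Phlda3 at 19.5 and Ccng1 at 14.2. Mdm2 (11.7), Sesn2 (7.06), Cdkn1a (3.57), Mdm4 (2.47) and Rb1 (1.84 CPM per kb) completed the order. In WT only the neighbours Mdm4 and Rb1 had overlapping ranges, of 2.17 to 2.81 and 1.63 to 2.21 CPM per kb. The order of the group means changed at 2 places between the groups. Cdkn1a dropped below Mdm4 in KD (2.37 against 2.72 CPM per kb), and Sesn2 reached Mdm2 in OE (12.7 against 12.1 CPM per kb). The Sesn2 and Mdm2 ranges overlapped in OE, and those of Cdkn1a and Mdm4 did not in KD.

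Trp53 (ENSMUSG00000059552, chromosome 11, 69580359 to 69591873, plus strand, GRCm38), which encodes p53, was slightly lower in KD. Trp53 stood at 199, 199 and 204 CPM in WT replicates 1 to 3, 177, 183 and 186 CPM in KD and 211, 204 and 211 CPM in OE. The 3 KD libraries lay below every WT library and the 3 OE libraries above the highest WT value, 1 of them by a narrow margin. Trp53 fell by 9.46% in KD, a log2 fold change of -0.14 (SE 0.023, edgeR adjusted p = 0.0117). In OE the log2 fold change was 0.054 (SE 0.019, edgeR adjusted p = 0.314), which did not pass. OE was 14.7% above KD (edgeR adjusted p = 0.000332). The KD call is the least secure of the 4, since without KD replicate 1 the log2 fold change was -0.12 with an edgeR adjusted p of 0.0810, and with library totals in place of TMM the adjusted p was 0.0535.

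Mdm2 (ENSMUSG00000020184, chromosome 10, 117688875 to 117710758, minus strand) encodes the ubiquitin ligase that marks p53 for degradation and is itself a p53 target. Mdm2 stood at 56.8, 63.1 and 58.3 CPM in WT replicates 1 to 3, 57.1, 60.4 and 59.7 CPM in KD and 60.7, 61.5 and 62.1 CPM in OE. KD and OE each overlapped WT, with OE just above KD, and the log2 fold changes were -0.0092 in KD (SE 0.052, edgeR adjusted p = 0.931) and 0.048 in OE (SE 0.047, edgeR adjusted p = 0.51). The product of Mdm4 (ENSMUSG00000054387, chromosome 1, 132959484 to 133030561, minus strand) binds p53 and blunts its activity. Mdm4 stood at 36.04, 41.6 and 32.2 CPM in WT replicates 1 to 3, 41.6, 40.8 and 38.2 CPM in KD and 35.9, 36.6 and 31.2 CPM in OE. WT replicate 2 reached the KD range, and neither comparison with WT passed (edgeR adjusted p = 0.3 in KD and 0.48 in OE). Mdm4 was lower in OE than in KD, by a log2 fold change of -0.22 (SE 0.081, edgeR adjusted p = 0.045), a call that was lost under 8 of the 19 other settings. Among these were the fits that left out replicate 1 of any group, KD replicate 2 or OE replicate 3, where the log2 fold change ran from -0.24 to -0.15 and the edgeR adjusted p from 0.0601 to 0.204. Without WT replicate 2, Mdm4 in KD was higher than WT at 0.24 on the log2 scale (edgeR adjusted p = 0.0158).

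Ratios of counts within a library do not depend on how libraries are scaled. The pair were compared as such a ratio, 1 of 6 chosen after the levels were seen. Mdm2 to Mdm4 was 1.63 ± 0.157 (SD, n = 3) in WT, then 1.47 ± 0.0959 in KD and 1.79 ± 0.175 in OE. An exact permutation test over the 3 groups gave p = 0.0893 (adjusted over the 6 ratios, 0.0893). Mdm2 to Trp53 was 0.296 ± 0.018 in WT, then 0.325 ± 0.00445 in KD and 0.295 ± 0.00705 in OE (exact permutation p = 0.0607, adjusted 0.0729). Neither ratio passed, although the 3 KD ratios of Mdm2 to Trp53 lay above all 6 others.

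Of the 4 p53 target genes, Cdkn1a and Sesn2 fell in KD, Sesn2 rose in OE, and Ccng1 and Phlda3 passed no test against WT. Cdkn1a (ENSMUSG00000023067, chromosome 17, 29090976 to 29100727, plus strand) encodes p21, which halts the cycle by inhibiting cyclin-dependent kinases. The window of its upstream start, with 2 matches to the p53 motif, is printed above. Cdkn1a stood at 12.4, 13.5 and 12.1 CPM in WT replicates 1 to 3, 9.02, 8.72 and 7.54 CPM in KD and 11.4, 12.3 and 12.00 CPM in OE. Every KD library lay below every other library, and OE overlapped WT. Cdkn1a fell by 33.7% in KD, from 12.7 ± 0.688 to 8.42 ± 0.782 CPM (SD, n = 3), which is a log2 fold change of -0.59 (SE 0.091, edgeR adjusted p = 9.97e-05). In OE the log2 fold change was -0.096 (SE 0.055, edgeR adjusted p = 0.46), and OE lay 41.1% above KD (edgeR adjusted p = 0.00021). Its fall was larger than that of Trp53 in the same libraries. The Cdkn1a to Trp53 ratio of counts was 0.0632 ± 0.00401 in WT, then 0.0464 ± 0.0053 in KD and 0.057 ± 0.00321 in OE (exact permutation p over 3 groups = 0.00714, adjusted over 6 ratios 0.0143). All 3 KD ratios lay below all 6 others.

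Ccng1 (ENSMUSG00000020326, chromosome 11, 40748552 to 40755311, minus strand) encodes cyclin G1, a p53 target that binds a phosphatase subunit. Ccng1 stood at 48.96, 57.1 and 44.01 CPM in WT replicates 1 to 3, 43.03, 42.4 and 45.8 CPM in KD and 51.9, 53.1 and 57.3 CPM in OE. KD and OE overlapped WT through the wide WT range but not each other. The log2 fold change was -0.20 in KD (SE 0.11, edgeR adjusted p = 0.0797), 0.11 in OE (SE 0.12, edgeR adjusted p = 0.284) and 0.31 between OE and KD (SE 0.055, edgeR adjusted p = 0.00324), and the last passed. The KD value passed without WT replicate 3 (log2 fold change -0.28, edgeR adjusted p = 0.00285). Phlda3 (ENSMUSG00000041801, chromosome 1, 135766119 to 135769136, plus strand) encodes a p53-induced repressor of Akt signalling. Phlda3 stood at 29.6, 29.3 and 32.3 CPM in WT replicates 1 to 3, 32.8, 32.1 and 32.5 CPM in KD and 29.5, 29.7 and 31.2 CPM in OE. OE overlapped WT, 1 WT library reached into the KD range, OE lay below KD, and no comparison passed (edgeR adjusted p from 0.156 to 0.896).

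Sesn2 (ENSMUSG00000028893, chromosome 4, 132492032 to 132510501, minus strand) had the largest range of the 10 genes. It encodes sestrin 2, a stress-induced leucine sensor that restrains mTORC1 and that p53 and the integrated stress response can both induce. Sesn2 stood at 24.1, 24.5 and 24.9 CPM in WT replicates 1 to 3, 20.3, 21.4 and 20.2 CPM in KD and 46.2, 42.4 and 43.3 CPM in OE. The 3 groups stood apart, KD below WT and OE far above. Sesn2 rose by 79.3% in OE, from 24.5 ± 0.365 to 43.97 ± 1.96 CPM (SD, n = 3), equal to a log2 fold change of 0.84 (SE 0.039, edgeR adjusted p = 4.67e-10). In KD it fell by 15.8% (log2 fold change -0.25, SE 0.028, edgeR adjusted p = 0.0057), and OE was 1.09 above KD on the log2 scale (SE 0.045, edgeR adjusted p = 5.47e-12).

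The other p53-induced sestrin, Sesn1, was called lower in both KD and OE. In KD both sestrins thus fell, Sesn1 by more, and only in OE did they move in opposite directions. The Sesn2 to Sesn1 ratio of counts was 1.03, 1 and 1.09 in WT, then 1.14, 1.22 and 1.25 in KD and 2.4, 2.34 and 2.17 in OE. Both modified groups lay above every WT library, OE furthest (exact permutation p over 3 groups = 0.00357, adjusted over 6 ratios 0.0107). Genes around Sesn2 shifted the same way. Over the 282 tested genes of the 20 Mb of chromosome 4 that hold it, the median log2 fold change was -0.18 in KD and 0.35 in OE. With that median subtracted, Sesn2 was at -0.068 in KD and 0.50 in OE, so most of its KD difference and part of its OE difference were shared with its neighbours. The cause of the shared shift was not tested.

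Cdkn2a (ENSMUSG00000044303, chromosome 4, 89274471 to 89294653, minus strand) fell in KD and rose in OE. The counts are per gene, so the p16Ink4a and p19Arf transcripts, which start at the printed downstream and upstream promoters and share exons, cannot be told apart. Cdkn2a stood at 127, 114 and 140.2 CPM in WT replicates 1 to 3, 86.4, 84.2 and 93.3 CPM in KD and 156, 157 and 167 CPM in OE. The groups did not overlap, and the order was KD, WT, OE. Cdkn2a fell by 30.7% in KD (log2 fold change -0.53, SE 0.096, edgeR adjusted p = 1.07e-05) and rose by 26.02% in OE (log2 fold change 0.33, SE 0.091, edgeR adjusted p = 0.000366). OE lay 0.86 above KD on the log2 scale (SE 0.054, edgeR adjusted p = 4.16e-09). Both comparisons share the WT libraries. Cdkn2a and Sesn2 were the genes of the 10, 2 in all, called in both comparisons with WT, lower in KD and higher in OE.

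Cdkn2b (ENSMUSG00000073802, chromosome 4, 89306299 to 89311039, minus strand), which lies 11.6 kb from Cdkn2a and encodes the TGF-beta-responsive inhibitor p15Ink4b, did not follow it. Cdkn2b stood at 37.4, 36.2 and 39.7 CPM in WT replicates 1 to 3, 35.5, 34.99 and 34.8 CPM in KD and 34.3, 33.98 and 36.6 CPM in OE. The KD libraries lay just below every WT library and the OE libraries overlapped WT. The log2 fold changes were -0.11 in KD (SE 0.04, edgeR adjusted p = 0.22) and -0.11 in OE (SE 0.051, edgeR adjusted p = 0.141), and neither passed. The Cdkn2a to Cdkn2b ratio of counts, also 1 of the 6 chosen after the levels were seen, sets the neighbours against each other. It was 3.39, 3.15 and 3.53 in WT, then 2.44, 2.41 and 2.68 in KD and 4.54, 4.63 and 4.57 in OE. The 3 groups did not overlap, and an exact permutation test over the groups gave p = 0.00357 (adjusted over 6 ratios 0.0107). That is the smallest p the test over 3 groups can give, and it describes a separation already seen in the levels. Each pair of groups alone gave 0.1, the smallest p that an exact permutation test of 3 against 3 libraries can reach.

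**Figure D2:**
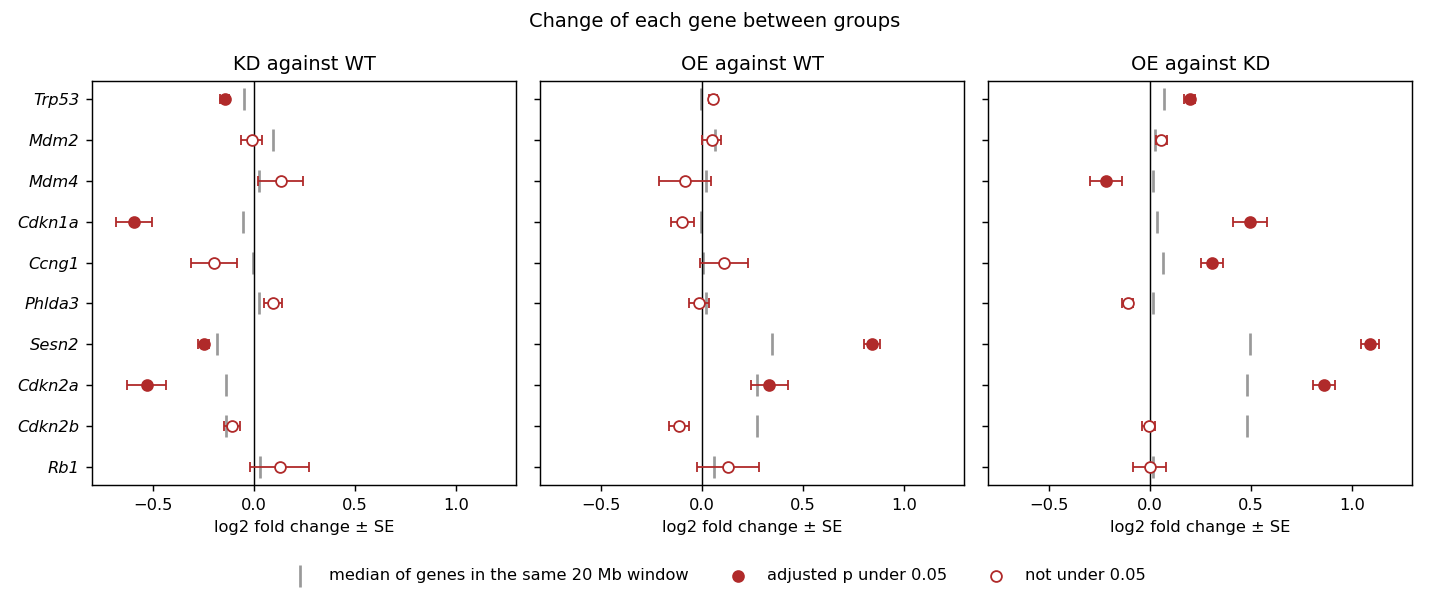
Log2 fold change ± SE of each of the 10 genes in KD against WT, OE against WT and OE against KD; filled points passed an edgeR adjusted p of 0.05, open points did not, and grey ticks are the median over tested genes of the same 20 Mb window. Cdkn1a and Cdkn2a lie left of their ticks in KD, Sesn2 lies right of its tick in OE, and Cdkn2a sits close to its tick in OE.

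Mtap, a methionine salvage enzyme gene 93.4 kb from Cdkn2a on its other side, gave a further comparison. Its level was 132 ± 4.78 CPM in WT, then 122 ± 3.12 in KD and 174 ± 0.606 in OE (SD, n = 3). Mtap rose in OE, at 0.41 on the log2 scale (SE 0.031, edgeR adjusted p = 1.06e-07), and stood at -0.11 in KD (SE 0.037, edgeR adjusted p = 0.0799). The Cdkn2a to Mtap ratio of counts was 0.969 ± 0.133 in WT, then 0.72 ± 0.0425 in KD and 0.917 ± 0.0382 in OE (exact permutation p over 3 groups = 0.025, adjusted over 6 ratios 0.0375). The KD ratios lay below all others, so that Cdkn2a was low in KD measured against Mtap as well. The OE ratios overlapped those of WT (exact permutation p = 0.7), so a difference between the rises of Cdkn2a and Mtap in OE was not shown.

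Within 500 kb of Cdkn2a the annotation holds 38 genes, of which 6 reached 1 CPM in a group: Cdkn2a, Cdkn2b, Mtap and the non-coding or predicted genes Wincr1, Gm12602 and Gm49890. Wincr1 rose in OE, at 1.39 on the log2 scale (SE 0.25, edgeR adjusted p = 0.000608), from 0.653 ± 0.177 to 1.72 ± 0.265 CPM. Gm49890 rose by 0.55 in OE (SE 0.24, edgeR adjusted p = 0.0123), a call lost without OE replicate 1 (0.30, edgeR adjusted p = 0.156), and Gm12602 passed neither comparison with WT. Dmrta1, the neighbour beyond Cdkn2b, was too low to test. Cdkn2b was thus the 1 coding gene of the locus that did not rise in OE among the 3 that were tested. Of the 32 tested genes within 5 Mb of Cdkn2a, 13 rose and 1 fell in OE (median log2 fold change 0.23), and 0 rose and 6 fell in KD (median -0.13). Within 20 Mb, 69 of 165 tested genes rose and 15 fell in OE (median 0.25), and 12 rose and 28 fell in KD (median -0.089). With the median of its own 20 Mb window subtracted, Cdkn2a was at -0.39 in KD and 0.059 in OE, and Cdkn2b at 0.029 and -0.39. Relative to its window, Cdkn2a was thus low in KD and near 0 in OE, and Cdkn2b was low in OE; the subtraction carries no test. The shift of this stretch of chromosome 4 and the genotype cannot be told apart.

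**Figure D3:**
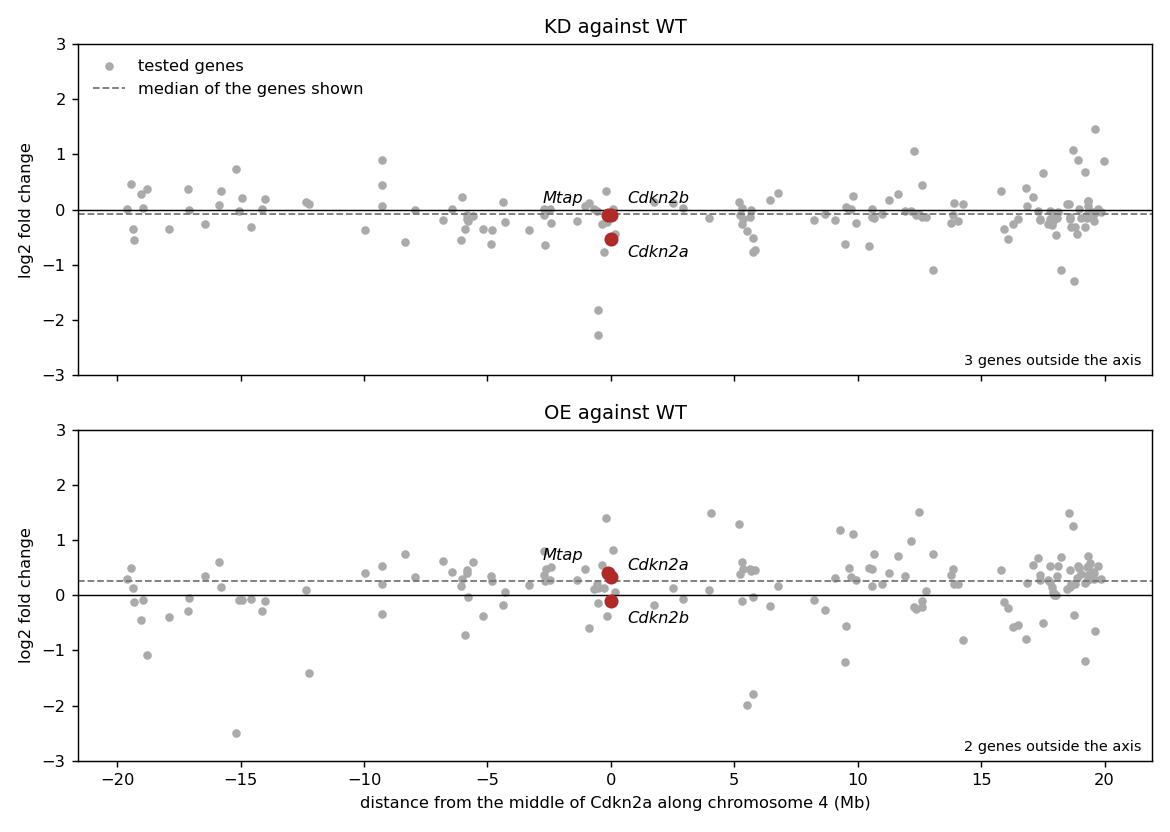
Log2 fold change of tested genes within 20 Mb of the middle of Cdkn2a on chromosome 4, by distance in Mb, in KD against WT (upper panel) and OE against WT (lower panel). The dashed line is the median of the 165 genes and red points are Cdkn2a, Cdkn2b and Mtap. The axis is cut. Tusc1 (-7.46), Patj (-5.36) and Lexm (7.15) in KD, and Calr4 (-4.10) and Lexm (6.50) in OE, lie beyond it. In OE the points lie mostly above 0 and Cdkn2b below it, and in KD Cdkn2a lies below the dashed line.

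Rb1 (ENSMUSG00000022105, chromosome 14, 73183673 to 73325822, minus strand), which encodes Rb itself, passed no comparison. Rb1 stood at 10.2, 13.3 and 9.78 CPM in WT replicates 1 to 3, 11.6, 12.2 and 12.8 CPM in KD and 13.4, 11.7 and 11.5 CPM in OE. KD and OE overlapped each other, and both overlapped WT only through WT replicate 2. The log2 fold change was 0.13 in KD (SE 0.15, edgeR adjusted p = 0.464) and 0.13 in OE (SE 0.16, edgeR adjusted p = 0.395). Without WT replicate 2 both passed, at 0.29 (edgeR adjusted p = 0.0366) in KD and 0.28 (edgeR adjusted p = 0.0316) in OE, so 1 library decided the call. Rb1 overlaps Lpar6, Rcbtb2 and 2 shorter genes, and whether the counting used strand is not given in the sources used here, so some counts could belong to the neighbours. Sesn2, Cdkn1a and Mdm4 likewise each overlap a predicted gene.

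The other genes of both pathways were read from 5 lists that share no gene, 147 genes in all, of which 140 were tested. Among 34 tested p53 target genes, 13 passed in KD (5 higher, 8 lower) and 21 in OE (9 higher, 12 lower). The share of the list called was 38.2% and 61.8%, beside 21.3% and 36.4% of all tested genes, with calls in both directions, and its median log2 fold change was -0.13 in KD and 0.012 in OE. Of the 11 p53 targets called in both, 3 fell in KD and rose in OE, 4 did the reverse, 1 rose in both and 3 fell in both. Bax, the cell death gene classically driven by p53, stood at 33.7 ± 1.45, 33.7 ± 0.305 and 33.6 ± 0.916 CPM in WT, KD and OE, and passed no comparison (edgeR adjusted p = 0.985 in KD and 0.992 in OE); it was named after its values were seen.

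Ccng2, an atypical cyclin of quiescent cells, fell in KD (-0.70, SE 0.081, edgeR adjusted p = 9.56e-07) and rose in OE (0.63, SE 0.064, edgeR adjusted p = 5.05e-07). Ddit4, another stress-induced brake on mTORC1, did likewise. Its level was 14.7 ± 0.507 CPM in WT, then 10.5 ± 1.44 in KD and 31.9 ± 1.06 in OE, with log2 fold changes of -0.49 (SE 0.12, edgeR adjusted p = 0.000328) and 1.11 (SE 0.04, edgeR adjusted p = 1.06e-09). Plk3, a stress-responsive polo-like kinase gene, rose in OE at 0.83 (SE 0.07, edgeR adjusted p = 2.43e-07), where the median of its window on chromosome 4 was 0.36; in KD it was called lower at -0.29 (edgeR adjusted p = 0.0343; window median -0.14), a call lost under 6 of the 19 other settings. Btg2, an antiproliferative immediate early gene, fell in KD at -1.02 (SE 0.15, edgeR adjusted p = 4.63e-05) and was also called lower in OE at -0.37 (SE 0.19, edgeR adjusted p = 0.0391). The OE call was lost with upper-quartile factors and without WT replicate 1, WT replicate 2, OE replicate 1 or OE replicate 3; without those libraries the log2 fold change ran from -0.38 to -0.27 and the edgeR adjusted p from 0.0749 to 0.173. Tigar, which lowers glycolytic flux, rose in KD at 0.53 (SE 0.03, edgeR adjusted p = 1.54e-05), and Ei24 fell in OE at -0.56 (SE 0.056, edgeR adjusted p = 1.81e-07), where its window's median was -0.35. Tigar was also called lower in OE (-0.19, edgeR adjusted p = 0.0466) and Ei24 higher in KD (0.18, edgeR adjusted p = 0.03), calls lost under 13 and 6 of the 19 other settings.

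Among 26 tested regulators of p53, 10 passed in KD (5 higher, 5 lower) and 14 in OE (9 higher, 5 lower). Rpl11, a ribosomal protein that can bind Mdm2, fell in KD (-0.20, SE 0.043) and rose in OE (0.51, SE 0.043), with edgeR adjusted p-values of 0.00142 and 3.31e-09. The medians of its window were -0.18 in KD and 0.35 in OE, so its KD value was close to that of its neighbours. Chek1, a checkpoint kinase gene, rose in KD at 0.44 and fell in OE at -0.37 (edgeR adjusted p = 0.000538 and 0.00186), beside window medians of 0.11 and -0.35. The p53 methyltransferase gene Kmt5a rose in KD (0.32, edgeR adjusted p = 1.11e-05) and in OE (0.18, edgeR adjusted p = 0.00167), the OE call being lost with library totals. The acetyltransferase gene Kat5 fell in KD (-0.32, edgeR adjusted p = 0.000128). Usp10, a deubiquitinase of p53, fell in OE (-0.37, edgeR adjusted p = 4e-07), and the coactivator gene Crebbp rose (0.31, edgeR adjusted p = 3.39e-05).

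Among 33 tested genes of the Rb and E2F machinery, 10 passed in KD (7 higher, 3 lower) and 15 in OE (12 higher, 3 lower). Cdkn2c, which encodes the INK4 inhibitor p18Ink4c and also lies on chromosome 4, also fell in KD and rose in OE. Its level was 82.9 ± 1.58 CPM in WT, then 57.1 ± 4.12 in KD and 119 ± 1.99 in OE (SD, n = 3). Its log2 fold changes were -0.54 (SE 0.063, edgeR adjusted p = 1.61e-07) and 0.52 (SE 0.021, edgeR adjusted p = 4.12e-08), where the window medians were -0.14 and 0.36. Ccnd2, a D-type cyclin gene whose product activates the kinases that INK4 proteins inhibit, moved the other way. It stood at 123 ± 3.94 CPM in WT, then 159 ± 5.23 in KD and 79.3 ± 1.48 in OE, with log2 fold changes of 0.38 (SE 0.038, edgeR adjusted p = 1.91e-06) and -0.63 (SE 0.031, edgeR adjusted p = 3.63e-10). Rbbp4, an Rb-binding chaperone of histones, fell in KD (-0.30, edgeR adjusted p = 8.65e-06) and rose in OE (0.44, edgeR adjusted p = 1.05e-08), again on chromosome 4 with window medians of -0.18 and 0.35. Mybl2, a cell cycle transcription factor gene, rose in OE (0.52, edgeR adjusted p = 3.07e-08).

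Of 26 tested genes that E2F drives in S phase and mitosis, 11 passed in KD (6 higher, 5 lower) and 16 in OE (9 higher, 7 lower), and the list medians were 0.0047 and 0.0056 on the log2 scale. In KD, Rrm1, a subunit gene of ribonucleotide reductase, rose at 0.24 (edgeR adjusted p = 0.000267) and Mcm5, a helicase subunit gene, fell at -0.19 (edgeR adjusted p = 0.00772). In OE, the replication licensing gene Cdt1 fell at -0.48 (edgeR adjusted p = 4.92e-09), beside a median of -0.44 over its window, and the thymidine kinase gene Tk1 fell at -0.30 (edgeR adjusted p = 6.95e-06). Rpa2, a subunit gene of the protein that binds single-stranded DNA, rose in OE at 0.43 (edgeR adjusted p = 8.62e-07; window median 0.35), and in KD it was called lower at -0.17 (edgeR adjusted p = 0.0243; window median -0.18), a call lost under 5 of the 19 other settings. Top2a, a topoisomerase gene of cycling cells, rose in KD (0.20, edgeR adjusted p = 0.00324) and in OE (0.23, edgeR adjusted p = 0.000347), and both calls were lost with library totals in place of TMM.

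Of 21 tested genes known to act at or lie beside the INK4 locus, 8 passed in KD (2 higher, 6 lower) and 10 in OE (7 higher, 3 lower). Kdm6b, which removes the repressive mark that Polycomb places on the locus, fell in KD (-0.35, SE 0.052, edgeR adjusted p = 1.75e-05) and rose in OE (0.21, SE 0.051, edgeR adjusted p = 0.00124; the OE call was lost with library totals). Twist2, a repressor gene expressed at only 1.05 ± 0.164 CPM in WT, then 0.265 ± 0.113 in KD and 2.63 ± 0.308 in OE, changed by -1.92 (SE 0.35, edgeR adjusted p = 0.00013) and 1.34 (SE 0.16, edgeR adjusted p = 0.000208). The Polycomb subunit gene Suz12 rose in OE (0.44, edgeR adjusted p = 8.27e-05), and Ets2, an activator of the p16Ink4a promoter, rose in KD (0.26, edgeR adjusted p = 0.000969). As for the 10 genes, the shares called in these lists stand beside 21.3% of all tested genes in KD and 36.4% in OE.

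**Figure D4:**
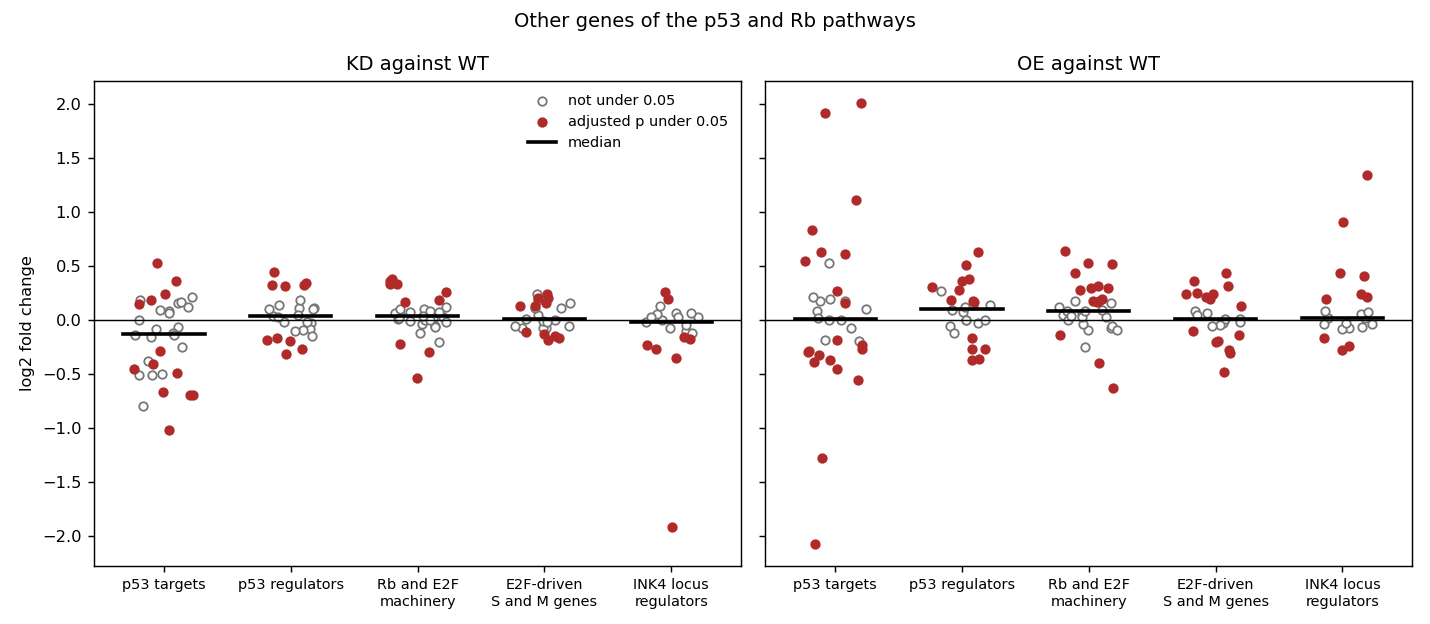
Log2 fold change of each tested gene of the 5 pathway lists in KD against WT (left) and OE against WT (right); filled points passed an edgeR adjusted p of 0.05, open points did not, and black bars are list medians. Every list holds filled points on both sides of 0, and the medians lie between -0.13 and 0.10.

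The genes whose pattern over the 9 libraries was most like that of Sesn2, by the root mean square difference of centred log2 CPM among 9941 genes, were Eno1b (0.058), Rad54l (0.06) and Slc2a1 (0.062). Rad54l, a recombination gene, and Slc2a1, the glucose transporter gene, lie on chromosome 4 as Sesn2 does, and Eno1b is a near-identical copy of another enolase gene, so its counts are uncertain. Nearest to Cdkn2a were H2-Q4 (0.056), a gene of the MHC class I family whose members share sequence, Pfkl (0.065), a phosphofructokinase gene, and Hdac1-ps (0.07), listed as a pseudogene. None of these 3 is annotated on chromosome 4. As for Eno1b, the counts of Hdac1-ps are uncertain, since some could belong to the gene that it copies. The position of that gene was not examined. Likeness over 9 libraries in 3 groups describes a shared order of group levels and no more.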

How the data were processed

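The table deposited by the authors holds raw counts per Ensembl gene for 9 libraries, judged from whole numbers with unequal totals. The submitters' processing notes name GRCm38 and mm10; the aligner, counting program and use of strand are not given in the sources used here. Its 55774 rows held 55487 genes (168 stood on several rows with identical counts), every row named a gene, and each column matched 1 sample by name.

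Genes were kept with filterByExpr (group factor; 16955 genes), scaled by TMM and fitted in one model of all 9 libraries, with group and no other term, in edgeR 4.0.16 (robust quasi-likelihood, limma 3.58.1, R 4.3.3), with Benjamini-Hochberg adjustment over all tested genes and a threshold of 0.05. Each SE rests on the spread of log2 CPM within groups (prior count 2). Exact permutation tests of 3 libraries against 3 cannot give a p under 0.1. Positions and exon lengths came from GENCODE M21, which matched 55141 genes; windows are 20 Mb, by gene midpoint. Sequences came from RefSeq. Tables and figures were made in Python 3.11.15 with numpy 2.4.6, matplotlib 3.10.9 and pandas 2.3.3. Named genes were the 10 genes, Zbtb46, the 3 smallest p-values of each pathway list in each comparison with WT (leaving out genes under 1 CPM in every group), genes within 500 kb of Cdkn2a and the 3 nearest patterns of the 2 genes with the largest range (among genes of at least 5 CPM). The genes, lists and tests were chosen with earlier results of these data known.

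On simulated counts for KD against WT (16433 genes), genes of at least 5 CPM changed 2-fold were recovered in 100% of 62 cases and those changed by 0.5 on the log2 scale in 92.7% of 55. Of 141 calls, 11.3% were unchanged genes, which is above the nominal 0.05. The data gave 3617 calls in KD, so far fewer genes changed in the simulation and its share of unchanged calls need not hold for the data. Alternatives were DESeq2 1.42.0 size factors or Wald test, upper-quartile factors, library totals alone, ribosomal RNA and mitochondrial genes left out, no filter or at least 10 counts in every library, limma-voom, only the groups compared, a replicate block, and each library left out.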

Additional observations from a re-analysis of the deposited data

How the results depend on the processing

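Under the other settings, the number of the 10 genes called ran from 3 to 6 in KD, 2 to 4 in OE and 5 to 6 in OE against KD. Over all genes (14361 to 33519 tested), the calls ran from 2473 to 4699, 5129 to 6452 and 6019 to 8138. With single libraries left out, the OE count ran from 2 to 4, the latter without WT replicate 2. The calls of Cdkn1a in KD and of Sesn2 and Cdkn2a in both comparisons with WT passed in all 19 settings, with log2 fold changes from -0.65 to -0.52 for Cdkn1a, -0.28 to -0.23 (KD) and 0.78 to 0.88 (OE) for Sesn2, and -0.60 to -0.45 (KD) and 0.25 to 0.40 (OE) for Cdkn2a. Of the 140 tested list genes, 52 were called in KD, 32 with library totals alone, and 32 to 61 with single libraries left out, where leaving out KD replicate 2 or KD replicate 3 gave 32 each. The calls over all genes moved the same way. They were 3617 in the main fit, 2473 with library totals alone, and 2537 and 2664 without KD replicate 2 and KD replicate 3.

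Among the log2 fold changes compared across settings, the sign changed in 19 of 2383 values, all of them differences that were not called. In KD, Mdm2 ran from -0.040 to 0.038 with single libraries left out and was at 0.015 without KD replicate 1. In OE, Phlda3 was at 0.021 with upper-quartile factors and ran from -0.047 to 0.025 with single libraries left out; Mdm4 ran from -0.18 to 0.015, the latter without WT replicate 2; and with library totals alone Trp53 was at -0.0068 and Mdm2 at -0.015. In OE against KD, Rb1 was at 0.00097 with DESeq2 size factors, 0.063 with upper-quartile factors, 0.0032 without ribosomal RNA and mitochondrial genes, 0.0028 under the minimum of 10 counts per library and 0.00091 with DESeq2's Wald test, and ran from -0.071 to 0.042 with single libraries left out. Cdkn2b in OE against KD was at 0.056 with upper-quartile factors and ran from -0.039 to 0.014 with single libraries left out. The cause of these changes was not tested.

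The groups share replicate numbers, and the labels do not say whether these mark pairs. Over all genes, same-numbered libraries did not deviate together (correlations from -0.0421 to 0.049 over 9 pairs). That correlation cannot exclude a shared effect on single genes. Replicate 3 was the highest library of each group for Cdkn2a and the lowest of each group for Mdm4. With the replicate block, 4, 2 and 6 of the 10 genes were called in KD, OE and OE against KD, as without it. The edgeR adjusted p moved both ways. It went from 1.07e-05 to 2.76e-07 for Cdkn2a in KD and from 0.045 to 0.00818 for Mdm4 in OE against KD. For Trp53 in KD it went from 0.0117 to 0.0181. Counts were lowest for Cdkn1a (347 to 801 per library) and Rb1 (386 to 792).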

Other observations

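The p53 target genes Dcxr, Perp and Gdf15, which lie outside the naming rule and were picked with their values in view, changed more in OE than the 4 targets described above. Dcxr, a xylulose reductase gene, stood at 1.45 ± 0.234 CPM in WT, then 1.01 ± 0.177 in KD and 0.343 ± 0.112 in OE (SD, n = 3), with a log2 fold change in OE of -2.08 (SE 0.29, edgeR adjusted p = 2.48e-05). The membrane protein gene Perp, at 1.01 ± 0.422 CPM in WT, reached 3.92 ± 0.236 in OE (log2 fold change 1.92, SE 0.40, edgeR adjusted p = 2.36e-06), and the stress cytokine gene Gdf15 went from 0.738 ± 0.273 CPM to 2.96 ± 0.306 (2.01, SE 0.29, edgeR adjusted p = 5.1e-06), both from levels near 1 CPM. Dcxr was as low in WT and lower still in OE, so all 3 fold changes rest on low levels. Perp and Gdf15 did not pass in KD (edgeR adjusted p = 0.907 and 0.286). Sesn1, the relative of Sesn2, fell from 23.6 ± 0.842 CPM in WT to 17.2 ± 0.852 in KD and 19.1 ± 0.922 in OE (edgeR adjusted p = 7.98e-05 and 0.00183). Ppm1d, a phosphatase gene that p53 induces and that dampens it, fell in OE from 32.4 ± 1.11 to 26.8 ± 0.876 CPM (edgeR adjusted p = 0.00087).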
